A study of Mus musculus with 12 samples.

Results

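Mt1 and Mt2 are the metallothionein genes of general use in mouse tissues, and they were taken here as every probe set annotated with the single gene symbol Mt1 or Mt2. The array held 3 such probe sets, of 2 genes among 12393, out of 22626 that were no controls, 1422557_s_at and 1451612_at for Mt1 and 1428942_at for Mt2. They were chosen by these same signals, being low in one group of hearts and high in the others, so the differences between groups are given below as a description, with no test. All values come from 12 hearts of the inbred mouse strain C57Bl/6, each measured on its own single-colour Affymetrix array. The 4 groups of 3 mice were Wake-MI, Wake-SH, Sleep-MI and Sleep-SH. MI is a myocardial infarction made by ligation of the left coronary artery's anterior descending branch, and SH is the sham operation without it. Wake operations were done from ZT13 to ZT15 and the hearts taken 8 hours later at ZT23, while sleep operations were done from ZT1 to ZT3 and the hearts taken 8 hours later at ZT11 (ZT, zeitgeber time, counts hours after lights on). The hour of the operation and the hour of collection therefore changed together and cannot be told apart, and the series has no heart from a mouse without an operation in the files used here. The MI samples are described as infarcted tissue, while which part of a sham heart was used the sources at hand do not give.

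Metallothioneins are small, cysteine-rich proteins that bind zinc and copper, buffer these metals inside the cell and can take up reactive oxygen. Their genes are switched on by zinc through the metal-sensing transcription factor MTF-1, which binds metal response elements near the start of transcription, and also by glucocorticoid hormone, by interleukin-6 signalling and by oxidative stress. In mouse hearts, raised metallothionein has been known to protect against injury by ischaemia, and glucocorticoid in the blood of mice has a daily rhythm that peaks around lights off.

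The promoter windows are shown because both genes share regulators and their signals moved together. Each is the 250 bases before the start in the RefSeq promoter table (GRCm38.p6), 5′ to 3′, on the plus strand, for Mt1 at chr8:94178839-94179088 and for Mt2 at chr8:94172368-94172617. Capitals mark matches to the core of the metal response element, TGCACNC or TGCGCNC on either strand.
Mt1: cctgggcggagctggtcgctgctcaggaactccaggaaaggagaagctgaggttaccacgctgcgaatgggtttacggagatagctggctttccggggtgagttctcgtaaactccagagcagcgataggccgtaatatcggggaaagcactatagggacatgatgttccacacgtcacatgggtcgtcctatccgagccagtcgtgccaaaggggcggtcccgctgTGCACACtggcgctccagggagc
Mt2: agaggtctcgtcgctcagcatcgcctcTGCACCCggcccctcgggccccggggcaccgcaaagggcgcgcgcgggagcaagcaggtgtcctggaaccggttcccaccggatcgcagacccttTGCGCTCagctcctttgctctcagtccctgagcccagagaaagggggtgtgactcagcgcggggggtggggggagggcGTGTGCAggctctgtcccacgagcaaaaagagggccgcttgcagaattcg
The Mt1 window held 1 core, TGCACAC, from 23 to 17 bases before the start. The Mt2 window held 3 cores, the first reading TGCACCC, the second TGCGCTC and the third, on the minus strand, GTGTGCA as printed, and the last of these lay from 50 to 44 bases before the start. At least 1 core was present in 21.4% of all 32851 windows of that length in the table, and at least 3 in 1.26%. With the 50 bases after the start included, Mt1 had 3 cores and Mt2 had 4, and at least as many were found in 1.97% and 0.518% of the windows. The Mt1 start in the table lies inside the annotated span of the gene, so the window printed for Mt1 may not be the promoter of its main transcript, and other start sites were not searched. The Mt1 window also held a match to the palindromic glucocorticoid response element, which reads ggacatgatgttc from 94 to 82 bases before the start, and 0.387% of windows hold a match to this motif on either strand. The Mt2 window held no such match and 1 match to the antioxidant response element core, TGACNNNGC on either strand, a motif found in 10.2% of windows. Neither window held the E-box CACGTG, found in 6.02% of windows. No match overlapped another. A match in letters is not a measured binding site, and the absence of a match says nothing about a factor.

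Mt1 was measured on its brighter probe set, 1422557_s_at, at signals (MAS5 intensities, linear scale) of 10169, 8387 and 8247 in the Wake-MI hearts, against 3723, 4808 and 3176 in the Wake-SH hearts. In sleep hearts it had signals of 7925, 8933 and 9939 after MI and of 8455, 6971 and 6413 after sham operation. The 3 Wake-SH hearts were the lowest of the 12, whereas the Sleep-MI and Sleep-SH hearts overlapped. The group means were 8935 ± 1072 in Wake-MI, 3902 ± 831 in Wake-SH, 8933 ± 1007 in Sleep-MI and 7280 ± 1055 in Sleep-SH hearts (SD, n = 3 each). In order of level, Sleep-MI and Wake-MI overlapped, Sleep-MI and Sleep-SH overlapped, and Wake-SH stood apart from its nearest neighbour, Sleep-SH.

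Mt2 had signals of 7345, 6765 and 6265 in the Wake-MI hearts, against 441, 814 and 386 in the Wake-SH hearts. In sleep hearts Mt2 had signals of 7114, 7168 and 7834 after MI and of 5275, 5863 and 2069 after sham operation. The 2 upper groups, Sleep-MI and Wake-MI, overlapped each other, all 6 of their hearts lay above all 3 Sleep-SH hearts, and these lay above all 3 Wake-SH hearts. The group means were 6792 ± 540 in Wake-MI, 547 ± 233 in Wake-SH, 7372 ± 401 in Sleep-MI and 4402 ± 2042 in Sleep-SH hearts (SD, n = 3 each). The wide spread in Sleep-SH hearts came from replicate 3.

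The dimmer Mt1 probe set, 1451612_at, had signals of 158, 119 and 330 in the Wake-MI hearts, against 3.75, 21.8 and 11.7 in the Wake-SH hearts. In sleep hearts it had signals of 180, 184 and 136 after MI and of 49.9, 103 and 22.9 after sham operation. It put the groups in the same order as Mt2 apart from the MI groups, which overlapped, and its lowest Sleep-SH heart lay only just above the highest Wake-SH heart. The signals near or below 16 on this probe set carry little information on order.

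On the log2(signal + 16) scale, on which the group means were compared, Mt1 (1422557_s_at) differed between Wake-MI and Wake-SH hearts by 1.21 (SE 0.15), a ratio of 2.31. Mt2 differed there by 3.67 (SE 0.32), a ratio of 12.7, and the dimmer Mt1 probe set by 2.87 (SE 0.38). Every Wake-MI heart was above every Wake-SH heart on all 3 probe sets, as held for 13.6% of all genes tested. In sleep hearts Mt2 and the dimmer Mt1 probe set were above without overlap after MI, as were 8.20% of all genes, and all 3 probe sets were lower without overlap in Wake-SH than in Sleep-SH hearts, as were 8.15%. The Sleep-MI minus Sleep-SH differences were smaller, 0.30 (SE 0.15) for Mt1, 0.88 (SE 0.32) for Mt2 and 1.43 (SE 0.38) for the dimmer Mt1 probe set. The difference for Mt2 in sleep hearts became 0.40 without Sleep-SH replicate 3.

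Wake-SH minus Sleep-SH was -0.91 (SE 0.15) for Mt1, -2.91 (SE 0.32) for Mt2 and -1.30 (SE 0.38) for the dimmer Mt1 probe set, so that Mt2 was 7.52-fold lower in Wake-SH hearts. Wake-MI minus Sleep-MI was -0.12 (SE 0.32) for Mt2 and 0.15 (SE 0.38) for the dimmer Mt1 probe set. The 2 MI groups thus had close signals at both hours, and the groups that differed with the hour were the sham groups. The Wake-SH arrays enter both the wake MI and the sham comparison and the Sleep-SH arrays enter both the sleep MI and the sham comparison, so these differences are not separate observations. The MI difference was larger in wake than in sleep hearts by 0.91 (SE 0.21) for Mt1 and by 2.79 (SE 0.45) for Mt2, again without a test. In whole tissue, fewer cells that make a transcript and less RNA per cell cannot be told apart.

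**Figure D1:**
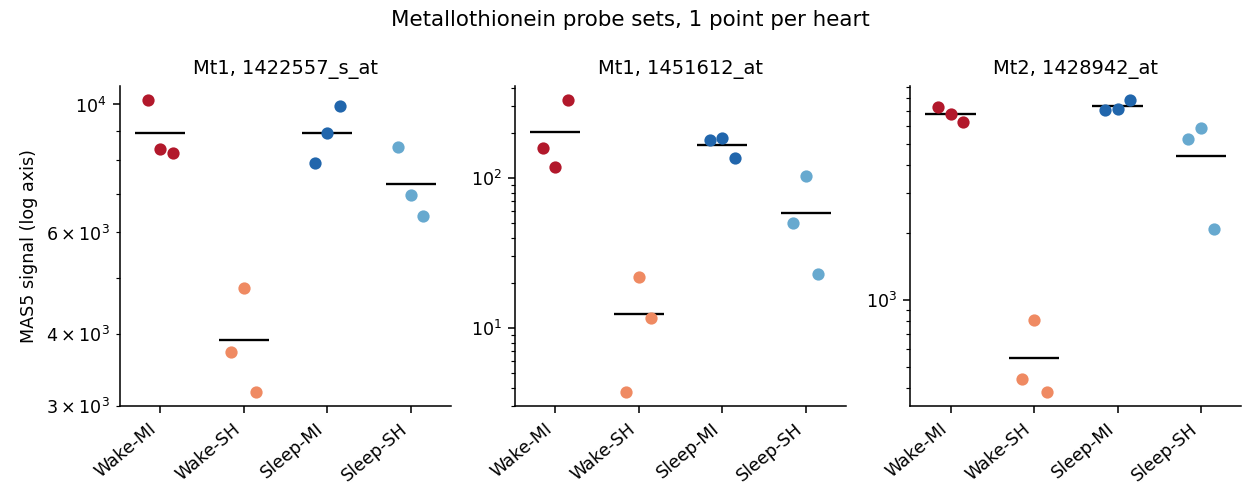
MAS5 signal of the 3 metallothionein probe sets in the Wake-MI, Wake-SH, Sleep-MI and Sleep-SH groups on log axes that differ in range between panels, with 1 point per heart and a bar at the mean of the 3 hearts. All 3 Wake-SH points lie below the other 9 points in each panel, and Sleep-SH replicate 3 is the lowest of its group in each panel.

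The ratio of wake MI to wake sham thus depended on the probe set. The brighter Mt1 probe set and, in MI hearts, Mt2 were near the top of the scale. The signal of that Mt1 probe set was 50.3% to 80.7% of the highest signal on the array in the 9 hearts outside Wake-SH. In the Wake-SH hearts it was 29.3% to 45.9%. Mt2 was at 51.6% to 62.0% of the highest signal in the MI hearts, within the range of that Mt1 probe set. How far signals there still follow RNA amount was not tested, for Mt2 as for Mt1. The close signals of the MI groups on these probe sets carry that limit, while the dimmer Mt1 probe set lay far lower on the scale. The name of the brighter Mt1 probe set ends in _s_at, which on Affymetrix arrays marks probes shared by more than 1 transcript. It therefore cannot be told how much of its signal comes from other metallothionein transcripts. The annotation names Mt1 alone for it.

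All 3 Wake-SH arrays lay below all 9 others for 250 of the 8101 genes tested (those above a minimum level), or 3.09%, and above all 9 others for 437 genes, or 5.39%. The pattern by which Mt1 and Mt2 were chosen is therefore found in other genes too, and more often turned upside down. A pair of technical readings had the Wake-SH arrays at one end as well. The beta-actin control probe sets gave a 3′ over 5′ signal ratio, a measure that goes up with RNA degradation, of 1.94 to 3.31 in the other 9 hearts and 1.77 to 1.81 in Wake-SH hearts. The added hybridisation controls averaged 9.81 ± 0.08 in Wake-MI, 9.41 ± 0.03 in Wake-SH, 9.68 ± 0.01 in Sleep-MI and 9.67 ± 0.07 in Sleep-SH hearts (log2 signal, SD, n = 3 each). With that ratio entered in the fit, the Mt2 difference was 3.43 in wake hearts and -2.78 between the sham groups, and that of Mt1 was 1.08 in wake hearts and -0.84 between the sham groups.

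The summed signal of 10 measured neutrophil markers was 1021 to 1472 in Wake-MI, 158 to 573 in Wake-SH, 1199 to 2175 in Sleep-MI and 314 to 962 in Sleep-SH hearts. Of the 10, Cxcr2, Trem1 and Clec4e lay below the level filter. All 12 cardiomyocyte markers were above that filter, with sums between 77113 and 106996, so the arrays carried the transcripts of the labelled tissue. Of 5 measured hepatocyte markers, Alb, Apoa1, Fga and Apob lay below the filter and 1 lay above it. The 5 summed to 50.9 to 103 in Wake-MI, 26.8 to 41.9 in Wake-SH, 51.5 to 56.9 in Sleep-MI and 32.8 to 54.2 in Sleep-SH hearts, so these low sums did not overlap between the wake groups. Atrial markers summed to 14840 in Wake-SH replicate 3 and to 1135 to 4905 in the other 11 hearts, and without that replicate the wake MI difference of Mt2 was 3.46 and the sham difference -2.71. The atrial sums were 1135 to 1536 in Wake-MI and 1848 to 14840 in Wake-SH hearts. The sums of 7 fibroblast markers were 5462 to 7068 and 8066 to 11999 there. Of 5 measured adipocyte markers, Adipoq, Retn, Ucp1 and Lep lay below the filter, so their sum was nearly all the signal of 1 gene. The 5 summed to 8401 to 8468 in Wake-MI and 7459 to 7573 in Wake-SH hearts. The atrial, fibroblast and adipocyte sums, too, did not overlap between the wake groups, but they did between the sleep groups. The part of the beta-actin ratio, the hybridisation controls and the neutrophil, hepatocyte, atrial, fibroblast and adipocyte markers in the metallothionein levels was not tested.

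Within the groups, which the choice of these genes did not use, the brighter Mt1 probe set and Mt2 tended to be high or low in the same hearts. The deviation of each heart from the mean of its group, on the log2 scale, had the same sign for Mt1 (1422557_s_at) and Mt2 in 10 of 12 hearts (Pearson r = 0.70 over 12 arrays, and 0.72 without Sleep-SH replicate 3). These 12 deviations share 4 group means and the arrays' scaling, and r is given as a description. The brighter Mt1 probe set may hold signal of other metallothionein transcripts, as said above, which limits what its likeness to Mt2 can show. The dimmer Mt1 probe set followed Mt2 less closely (r = 0.60, and 0.42 without Sleep-SH replicate 3) and the brighter Mt1 probe set hardly at all (r = 0.11). Its deviation had the same sign as that of Mt2 in 5 of 12 hearts, and as that of the brighter probe set in 5 of 12. The largest deviations of Mt2 and of the brighter Mt1 probe set lay in the sham groups. Wake-SH replicate 2 was above its group mean by 0.32 for Mt1 and by 0.64 for Mt2, and Sleep-SH replicate 3 deviated by -0.17 for Mt1 and by -0.95 for Mt2. In MI hearts Mt2 deviated by no more than 0.12 in either direction.

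The same sham hearts stood out on neutrophil transcripts. The neutrophil sums of Wake-SH replicates 1, 2 and 3 were 158, 573 and 312, beside Mt2 signals of 441, 814 and 386. Those of Sleep-SH replicates 1, 2 and 3 were 727, 962 and 314, beside Mt2 signals of 5275, 5863 and 2069. The heart with the highest Mt2 in each sham group also had the highest neutrophil sum. This was not so for the MI groups. There the highest Mt2 signals were in Wake-MI replicate 1 and Sleep-MI replicate 3. The highest neutrophil sums, 1472 and 2175, were in replicate 2 of each MI group. The lowest neutrophil sum of the Wake-SH hearts was in replicate 1, while replicate 3 had the lowest Mt2. In each group the heart with the lowest Mt2 had the highest atrial and fibroblast sums. In Wake-SH replicate 3 these were 14840 and 11999, and in Sleep-SH replicate 3 they were 4905 and 10744. Whether any of these sums bear on the Mt2 levels was not tested.

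**Figure D2:**
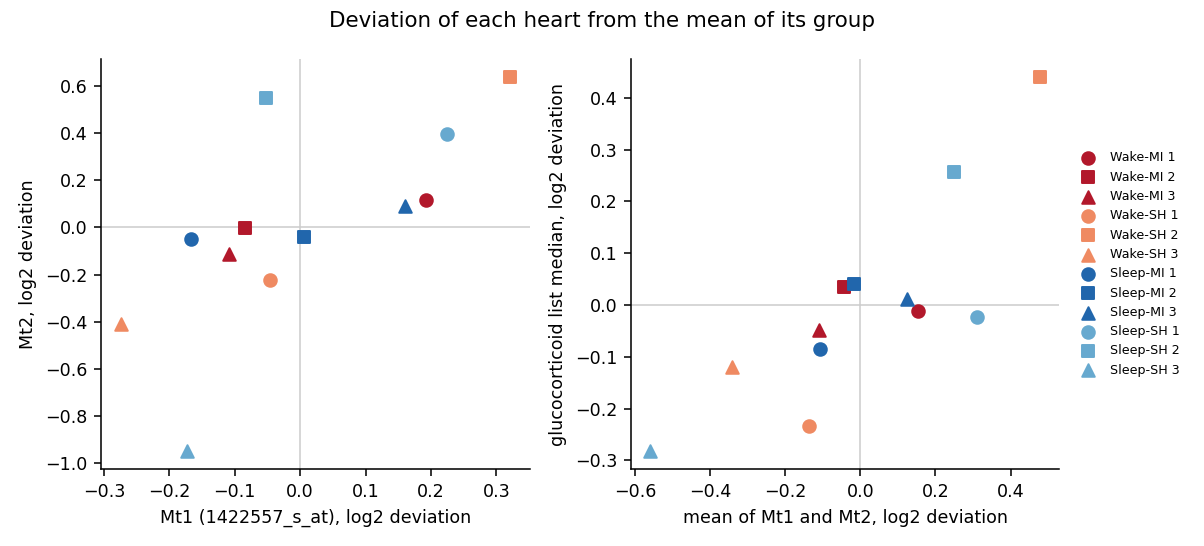
Deviation of each heart from its group mean, in log2 units, for Mt2 against Mt1 (left) and for the median of the 26 glucocorticoid-responsive genes tested against the mean of Mt1 and Mt2 (right). Colours mark groups and shapes mark replicates, and Wake-SH replicate 2 at the upper right and Sleep-SH replicate 3 at the lower left lie farthest out in the right panel.

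The other metallothionein genes gave no such pattern. Mt3, the form known from brain, had signals of 1.39 to 30.0, and Mt4, known from stratified epithelia, of 0.44 to 11.3 over the 12 hearts, so that both lay below the level filter, a mean signal of 16.8, and were not tested. Mtf1, which codes for the metal-sensing factor that drives Mt1 and Mt2, had signals of 74.9, 54.7 and 67.4 in Wake-MI hearts, against 76.8, 92.6 and 91.6 in Wake-SH hearts. Its log2 difference was -0.34 in wake and -0.87 in sleep hearts, with adjusted p = 0.305 and 0.0511 (limma, Benjamini-Hochberg over the 8101 genes tested), so it did not pass at 0.05, and the other of its 2 probe sets went the opposite way in both.

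Of 28 tested genes of zinc and copper handling, taken without Mt1 and Mt2, 4 were higher and 2 lower in Wake-MI than in Wake-SH hearts, beside 18.5% of all genes that passed in either direction, 7.79% higher and 10.7% lower. The median log2 difference of these 28 genes was 0.04, against -0.06 over all genes. Atp7a, a copper pump that carries copper to the secretory route and out of the cell, had signals of 155, 181 and 121 in Wake-MI and of 57.1, 39.3 and 59.8 in Wake-SH hearts. These groups did not overlap, and Atp7a rose by 1.30 (SE 0.20, adjusted p = 0.000882, limma). Steap4, a metalloreductase of iron and copper, rose by 0.67 (SE 0.17, adjusted p = 0.0173, limma). Slc39a14, a zinc importer that also carries iron and is known in liver to be induced by interleukin-6, rose by 0.74 (SE 0.23, adjusted p = 0.0385, limma). Slc30a1, the zinc exporter of the cell surface and like Mt1 a target of MTF-1, rose by 0.62 (SE 0.20, adjusted p = 0.0427, limma) at signals of 35.0, 47.5 and 67.3 in Wake-MI and 29.5, 20.2 and 29.1 in Wake-SH hearts. The calls for Slc39a14 and Slc30a1 were lost when any 1 of the 3 Wake-SH replicates was left out. The zinc transporter gene Slc30a6 fell by 0.57 and the copper chaperone gene Atox1 by 0.42 (adjusted p = 0.0207 and 0.0187, limma), and 1 of 3 probe sets of Atox1 went the opposite way.

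In sleep hearts 0 of the 28 genes were higher and 1 was lower after MI, beside 2.65% of all genes that passed, 1.68% higher and 0.975% lower. This was Slc31a2, a copper transporter gene, with signals of 65.3, 75.4 and 84.1 in Sleep-MI and 136, 123 and 152 in Sleep-SH hearts (log2 -0.75, SE 0.18, adjusted p = 0.0396, limma), a call lost in 13 of 23 alternatives. Between the sham groups 1 of 28 passed, beside 1.52% of all genes. It was Atp7a again, lower in Wake-SH than in Sleep-SH hearts (log2 -0.93, SE 0.20, adjusted p = 0.0343, limma), and its call was lost in 11 of the alternatives tried. Between Wake-MI and Sleep-MI hearts 0 of 28 passed, beside 0.0741% of all genes. Atp7a was the 1 gene of the 28 for which all Wake-SH arrays lay below the other 9, beside 3.09% of all genes. For 2 of the 28 all Wake-SH arrays lay above the other 9, beside 5.39%.

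Iron handling genes, whose proteins share some carriers with zinc and copper, gave 2 of 15 higher and 1 lower in Wake-MI than in Wake-SH hearts, beside 7.79% higher and 10.7% lower of all genes. Lcn2, which codes for lipocalin-2, a binder of bacterial iron carriers made by neutrophils and stressed tissue, rose by 2.70 (SE 0.62) and Hmox1, the haem-degrading oxygenase, by 1.23 (SE 0.33), with adjusted p = 0.00962 and 0.0198 by limma. Slc40a1, the iron exporter ferroportin, fell by 0.72 (SE 0.24, adjusted p = 0.0490, limma), a call lost in 14 of 23 alternatives, among them leaving out Wake-SH replicate 2 or Wake-MI replicate 3 (adjusted p = 0.166 and 0.164, limma). None of the 15 passed in the sleep MI, the sham or the wake against sleep MI comparison by limma.

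Genes known to be induced by glucocorticoid hormone were set beside Mt1 and Mt2 because both are in that class too. Of 26 tested, taken without Mt1 and Mt2, 17 were higher and 0 lower in Wake-MI than in Wake-SH hearts, beside 7.79% higher and 10.7% lower of all genes. Their median log2 difference was 1.07, against -0.06 over all genes. Map3k6, a stress-activated kinase gene, had signals of 247, 248 and 266 in Wake-MI and 38.4, 101 and 55.3 in Wake-SH hearts, a rise by 1.81 (SE 0.22, adjusted p = 0.000210, limma). Sgk1, a kinase gene that controls sodium transport, had signals of 1463, 1398 and 1916 in Wake-MI and 558, 677 and 634 in Wake-SH hearts and rose by 1.32 (SE 0.19, adjusted p = 0.000594, limma). In both genes the groups did not overlap. Pdk4, which turns the heart's fuel use away from glucose, rose by 1.23 (SE 0.18, adjusted p = 0.000658, limma), and Fkbp5, a co-chaperone that restrains the glucocorticoid receptor, rose by 1.54 (SE 0.31, adjusted p = 0.00449, limma). Cdkn1a, a cell-cycle inhibitor, rose by 2.31 (SE 0.37), and Cebpd, a transcription factor gene of the acute phase, by 1.88 (SE 0.29), with adjusted p = 0.00113 and 0.00104 by limma. With the beta-actin ratio in the fit as covariate, 6 of the 26 passed in this comparison. The count over all genes, 1496 without the covariate, fell steeply as well, as given in the closing section. The fall was therefore not particular to this list.

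In sleep hearts 0 of the 26 were higher and 1 lower after MI, beside 1.68% higher and 0.975% lower of all genes. Their median was 0.18 against -0.05 over all genes. The 1 lower gene was Tsc22d3, which codes for the glucocorticoid-induced leucine zipper protein, with signals of 646, 779 and 946 in Sleep-MI and 1630, 1544 and 1202 in Sleep-SH hearts (log2 -0.88, SE 0.20, adjusted p = 0.0367, limma), a call lost in 8 of 23 alternatives. In wake hearts its difference was -0.13. Between the sham groups 8 of the 26 were lower and 0 higher in Wake-SH than in Sleep-SH hearts, beside 1.10% of all genes lower and 0.420% higher, and the difference was below 0 for all 26, with a median of -0.78 against 0.02 over all genes. Per1, a clock gene that glucocorticoid also induces, had signals of 84.0, 122 and 76.9 in Wake-SH and 203, 247 and 187 in Sleep-SH hearts (log2 -1.06, SE 0.15, adjusted p = 0.00300, limma). Map3k6 fell by 1.51 (SE 0.22) and Cebpb, a transcription factor gene, by 1.14 (SE 0.20), with adjusted p = 0.00385 and 0.0125 by limma. Fkbp5 had signals of 184, 362 and 128 in Wake-SH hearts and 528, 856 and 480 in Sleep-SH hearts and fell by 1.48 (SE 0.31, adjusted p = 0.0290, limma), a call lost in 8 of 23 alternatives.

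The number of glucocorticoid-responsive genes that passed between the sham groups depended on single hearts. It was 14 without Wake-SH replicate 2 and 13 without Sleep-SH replicate 3, the hearts that deviated most on Mt2, but 2 without Wake-SH replicate 1, Wake-SH replicate 3 or Sleep-SH replicate 2, and 5 without Sleep-SH replicate 1. It was 2 with the beta-actin covariate. The count over all 8101 genes, 123 on all 12 arrays, moved too, to between 30 and 226 with 1 array left out. The swing was therefore not particular to this list. Between Wake-MI and Sleep-MI hearts 0 of 26 passed, beside 0.0741% of all genes, with a median of -0.03. The MI effect was larger in wake than in sleep hearts, as an estimate, for all 26 genes. The median excess was 0.85 against -0.01 over all genes, but 0 of 26 passed. This interaction uses the same sham arrays as the sham comparison, so it is not a separate observation, and the 26 genes share the same hearts. Over all 8101 genes 0 (0%) passed that interaction test by limma after adjustment, while 852 had an unadjusted p below 0.05. Under other settings on all 12 arrays 0 to 3 genes passed, while 23 passed without Wake-SH replicate 2 and 35 without Sleep-SH replicate 3. For 8 of the 26 genes all Wake-SH arrays lay below the other 9, as for Mt1 and Mt2, beside 3.09% of all genes. These were Fkbp5, Per1, Zbtb16, Map3k6, Cebpd, Cebpb, Pdk4 and Plin4. In lists taken up below, the same held for 5 of 21 interleukin-6, 3 of 16 clock and 2 of 15 hypoxia-responsive genes. It held for 0 of 22 antioxidant and 0 of 15 iron handling genes. The pattern was therefore not particular to the glucocorticoid-responsive list.

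Nr3c1, which codes for the glucocorticoid receptor itself, did not pass (log2 -0.52 in wake hearts, adjusted p = 0.0537, limma). Of 6 tested genes of receptor and hormone handling 1 passed in wake hearts, beside 18.5% of all genes. This was Fkbp4, a co-chaperone of the receptor, which fell by 0.35 (SE 0.11, adjusted p = 0.0464, limma). This call was lost in 15 of 23 alternatives, among them median centring, quantile normalization and leaving out Wake-SH replicate 1 (adjusted p = 0.0681, 0.0708 and 0.183, limma). None passed in the sleep MI, the sham or the wake against sleep MI comparison. Within groups, the median deviation of the 26 glucocorticoid-responsive genes followed the mean deviation of Mt1 and Mt2 (r = 0.83 over 12 arrays, and 0.62 without Wake-SH replicate 2 and Sleep-SH replicate 3). In Wake-SH replicate 2 the median deviation of the list was 0.44 and 2 of the 26 genes were below the group mean, and in Sleep-SH replicate 3 it was -0.28 and 21 of 26 were below. Over 12 arrays the r of list and pair was 0.67 for the antioxidant list, 0.64 for the interleukin-6 list and 0.64 for iron handling, and without those 2 hearts it was 0.64, 0.55 and 0.74. The glucocorticoid-responsive list therefore had the highest r over 12 arrays, but not without those 2 hearts, where iron handling and antioxidant genes were above it. For zinc and copper handling r was 0.34 over 12 arrays and 0.46 without those hearts, for clock genes 0.25 and 0.03, for hypoxia-responsive genes 0.17 and -0.09, and for receptor and hormone handling -0.38 and -0.49. No test was made between the lists.

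**Figure D3:**
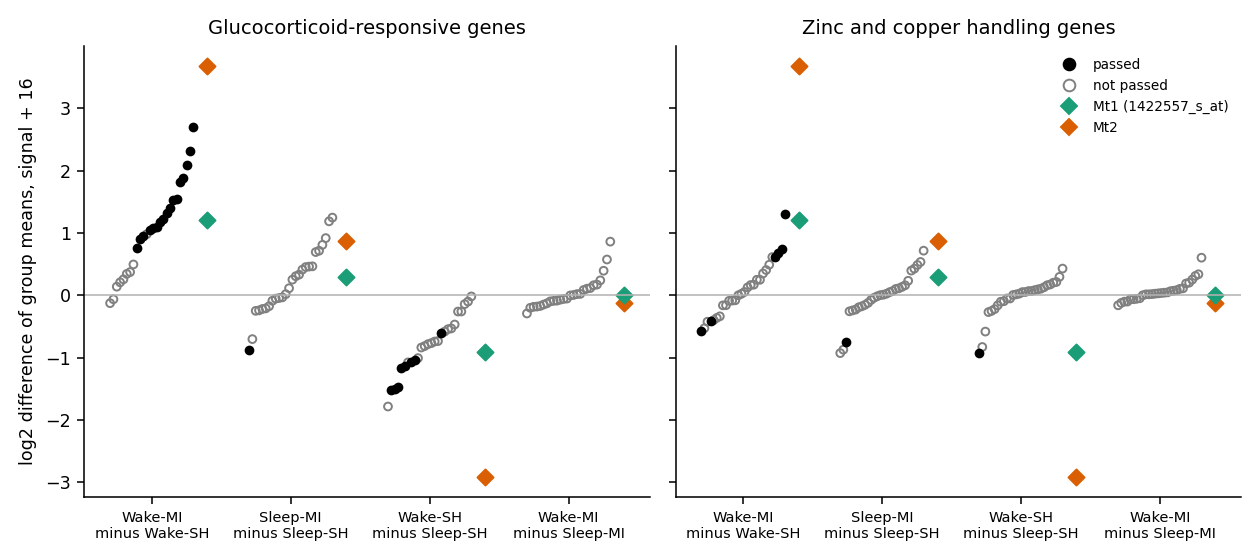
Log2 difference of group means for each tested glucocorticoid-responsive gene (left, 26 genes) and each tested zinc and copper handling gene (right, 28 genes) in 4 comparisons, with filled circles for genes that passed at an adjusted p below 0.05 and diamonds for Mt1 and Mt2. In the first comparison 17 of the 26 genes at left passed above 0, and in the third 8 passed below 0, while 6 and 1 of the 28 genes at right passed in those comparisons.

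Interleukin-6 signalling is another known inducer of metallothionein, best known from liver. Of 21 tested genes of this family 14 were higher and 0 lower in Wake-MI than in Wake-SH hearts, with a median of 1.39, beside 7.79% of all genes higher. In Sleep-MI against Sleep-SH hearts 6 were higher and 0 lower, with a median of 0.46, beside 1.68% higher. The all-gene medians were -0.06 and -0.05. Il6, the cytokine itself, had signals of 227, 283 and 293 in Wake-MI and 0.395, 2.53 and 3.75 in Wake-SH hearts (log2 3.96, SE 0.51, adjusted p = 0.000287, limma). In sleep hearts Il6 had signals of 446, 522 and 174 after MI and 71.0, 97.8 and 3.19 after sham operation (log2 2.65, SE 0.51, adjusted p = 0.0155, limma). Its groups did not overlap at either hour, and its lowest Sleep-SH heart, replicate 3, was the one with the lowest Mt2. Socs3, a feedback inhibitor induced by the cytokine, rose by 3.50 (SE 0.53) in wake and 2.14 (SE 0.53) in sleep hearts, with adjusted p = 0.000815 and 0.0463 by limma, and the call in sleep hearts was lost in 15 of 23 alternatives, the replicate block among them (adjusted p = 0.0732, limma). Between the sham groups 0 were higher and 3 lower in Wake-SH hearts, namely Osmr, Cebpd and Il4ra, beside 1.10% of all genes lower, and between the MI groups 0 passed. In Sleep-SH replicate 3, 19 of the 21 genes were below the group mean, with a median deviation of -0.68, whereas in Wake-SH replicate 2 the median deviation was -0.05.

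Of 22 tested antioxidant genes of the kind driven by the transcription factor NRF2, 3 were higher and 3 lower in Wake-MI than in Wake-SH hearts, beside 7.79% higher and 10.7% lower of all genes. Hmox1, which has that role too, and Gclc, a subunit gene of the enzyme that starts glutathione synthesis, rose, the second by 0.64 (SE 0.13, adjusted p = 0.00472, limma), as did Txnrd1, a thioredoxin reductase gene, by 0.85 (SE 0.17, adjusted p = 0.00476, limma). Txn1, Sod3 and Gpx3 fell by 0.38, 0.87 and 0.55. Hmox1 was at 68.1, 58.4 and 71.5 in Wake-MI and 21.2, 24.8 and 12.2 in Wake-SH hearts, and at 97.5, 123 and 123 in Sleep-MI and 73.6, 79.4 and 13.8 in Sleep-SH hearts. Its lowest Sleep-SH heart was again replicate 3. In sleep hearts 2 of the 22 were higher, Srxn1 and Txnrd1, and 1 lower, Gsta3, beside 1.68% higher and 0.975% lower of all genes. The first pair of calls was lost in 10 and 11 of 23 alternatives. None passed between the sham groups. In Wake-MI against Sleep-MI hearts 1, Gsta3, was higher, beside 0.0741% of all genes in either direction, and its call was lost in 14 of 23. Gclm and Nqo1, other NRF2 targets, did not pass in any of these comparisons.

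Hypoxia-responsive genes gave 5 of 15 higher in wake hearts, beside 7.79% of all genes, with Hif1a, which codes for the oxygen-sensitive factor, up by 1.18 (SE 0.17, adjusted p = 0.000526, limma), and 3 of 15 higher in sleep hearts, beside 1.68%, with Hif1a up by 0.87 (SE 0.17, adjusted p = 0.0155, limma). In each, 1 of its 4 probe sets went the opposite way. Between the sham groups 1 of 15, Vegfa, was higher and 2, Ndrg1 and Pfkfb3, were lower in Wake-SH hearts. Of all genes 0.420% were higher and 1.10% lower there. The calls for Vegfa, Ndrg1 and Pfkfb3 were lost in 2, 13 and 7 of 23 alternatives. For Pfkfb3, 1 of its 2 probe sets went the opposite way. Between the MI groups 0 of 15 passed. Clock genes, a check of the hour of collection, gave 2 of 16 higher and 8 lower in Wake-SH than in Sleep-SH hearts, beside 0.420% higher and 1.10% lower of all genes. Dbp, an output gene of the clock, fell by 2.99 (SE 0.28, adjusted p = 9.24e-05, limma), and Arntl, which codes for the clock factor BMAL1, rose by 1.67 (SE 0.21, adjusted p = 0.00120, limma). Between Wake-MI and Sleep-MI hearts 1 of the 16, Cry1, was higher, and Nr1d2 and Dbp were lower, beside 0.0741% of all genes in either direction. Dbp was lower by 1.80 (SE 0.28, adjusted p = 0.0274, limma). The call for Dbp was lost in 9 of 23 alternatives, among them the replicate block and leaving out Wake-MI replicate 1 or 2, Sleep-MI replicate 1 or 2, Wake-SH replicate 1 or Sleep-SH replicate 1 (adjusted p = 0.0506 to 0.187, limma). After MI 5 of the 16 clock genes were higher and 1 lower in wake hearts, beside 7.79% higher and 10.7% lower of all genes. In sleep hearts 1 of the 16 was higher and 3 were lower, beside 1.68% higher and 0.975% lower of all genes.

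Genes were ranked by the likeness of their pattern over the 12 arrays to the mean of Mt1 (1422557_s_at) and Mt2, as Pearson r on the log2 scale. Of 8099 genes, 64 had r above 0.9 and 25 below -0.9. The 10 most alike were Il17ra, Cebpd, Map3k6, Slc10a6, Cdc42ep4, Fam117b, Lrrc8a, Rhob, Cyb561 and Il4ra, with r of 0.954 to 0.977, and since they were picked for the pattern no test is given for it. Il17ra, a receptor chain for interleukin-17, had signals of 54.1, 74.0 and 73.0 in Wake-MI, 1.79, 18.6 and 2.03 in Wake-SH, 74.7, 85.6 and 88.5 in Sleep-MI and 56.0, 71.7 and 33.5 in Sleep-SH hearts. Slc10a6, a carrier of sulphated steroids, had signals of 523, 463 and 511 in Wake-MI, 42.7, 138 and 75.6 in Wake-SH, 436, 518 and 396 in Sleep-MI and 326, 493 and 165 in Sleep-SH hearts. In both genes Wake-SH replicate 2 was the highest of its group and Sleep-SH replicate 3 the lowest of its own, as for Mt2.

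Cebpd, Map3k6 and Rhob of these 10 are on the glucocorticoid-responsive list, and Cebpd and Il4ra on the interleukin-6 list. For 9 of the 10, all but Rhob, all Wake-SH arrays lay below the other 9, beside 3.09% of all genes. The choice by likeness to Mt1 and Mt2 favours this pattern, so the count is a description only. By Spearman's rank correlation, which gives less weight to the low Wake-SH arrays, none of these 10 was among the 10 most alike, and their rho was 0.762 to 0.895. The genes least alike were Acvr1, Gnpda1, Fahd1, Tmem242 and Tmem147, with r of -0.955 to -0.936. Acvr1, a receptor for activin and bone morphogenetic proteins, had signals of 60.9, 69.2 and 68.2 in Wake-MI, 133, 121 and 133 in Wake-SH, 69.5, 61.6 and 68.7 in Sleep-MI and 90.0, 84.2 and 89.8 in Sleep-SH hearts. Its level was highest in Wake-SH and next highest in Sleep-SH hearts, the reverse of Mt2.

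**Figure D4:**
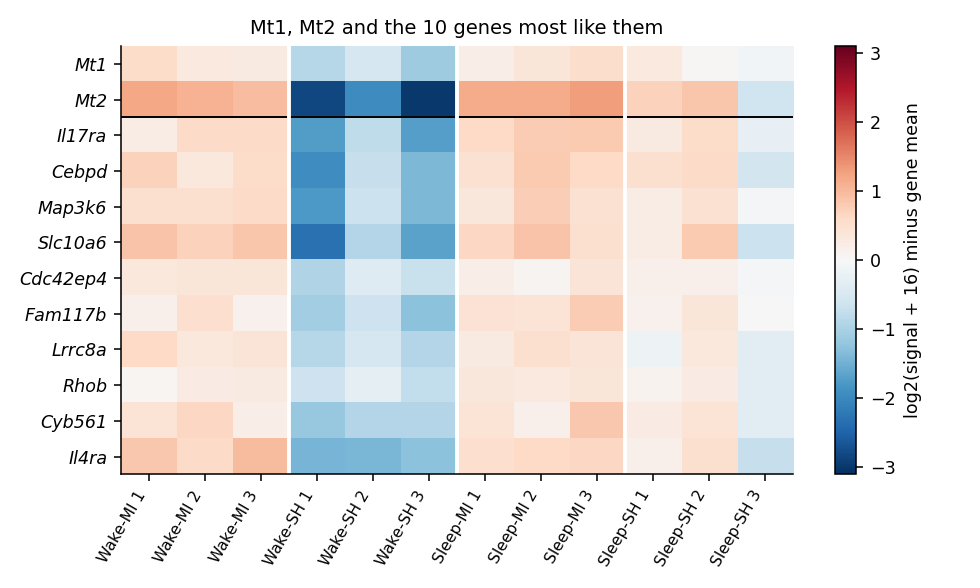
Level of Mt1, Mt2 and the 10 genes most like their mean on each of the 12 arrays, as log2(signal + 16) minus the mean of the gene, in blue below and red above that mean. The 3 Wake-SH columns are blue throughout and Sleep-SH replicate 3 is pale blue or near white.

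The 5 nearest genes on either side of Mt1 and Mt2 on chromosome 8 were examined too. In the order of the gene table (GRCm38.p6), Nudt21, Ogfod1, Bbs2, Mt4 and Mt3 lie on the side of Mt2, and Nup93, Slc12a3, Herpud1, Nlrc5 and Cpne2 on the side of Mt1. Of these 10, 5 were tested, 3 (Mt3, Mt4 and Slc12a3) lay below the level filter and 2 (Ogfod1 and Nlrc5) had no probe set named for them alone. Nup93, the tested gene nearest to the pair and a part of the nuclear pore, had signals of 101, 89.2 and 104 in Wake-MI and 86.1, 82.5 and 69.7 in Wake-SH hearts, a difference of 0.26 (SE 0.12) that did not pass (adjusted p = 0.159, limma). Of the 5, 1 passed in 1 comparison, that of the sham groups, beside 1.52% of all genes. Herpud1, which takes part in the disposal of misfolded proteins of the endoplasmic reticulum, had signals of 1034, 1856 and 734 in Wake-SH and 2727, 2376 and 2555 in Sleep-SH hearts (log2 -1.17, SE 0.27, adjusted p = 0.0487, limma), a difference in the direction of Mt1 and Mt2 whose call was lost in 18 of 23 alternatives. In wake hearts its difference after MI was 0.25 and did not pass (adjusted p = 0.558, limma).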

How the data were processed

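Heart RNA of 12 mice was hybridised to 12 arrays, 3 for each of 4 groups. The deposited values are intensities per probe set on a linear scale, and the submitters' processing notes name MAS5. The sources at hand state neither its version and settings nor detection calls. Each array had a trimmed mean (2% off both tails) of 150 and a median of 32.7 to 34.7, so a common scale was already present and none was added. Correlation across all probe sets that were no controls was 0.981 to 0.990 between arrays of a group and 0.971 to 0.990 between groups. The number of arrays limits the precision. Batches and scan dates are not stated there either, so batches were not tested. The labels call the samples biological replicates.

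Of 22690 probe sets 64 controls were left out. The annotation gave 20380 of the rest 1 gene symbol, 691 several and 1555 none, and only the first kind was named. Of the gene identifiers, 12369 matched a mouse gene table (GRCm38.p6, for names and gene order) and 24 did not. The probe set with the highest mean log2(signal + 16) stood for each of 12393 genes, and 8101 genes at or above the 40th percentile were tested with limma 3.58.1 in R 4.3.3, with the 12 arrays and 4 group means in one fit, a trend of variance with intensity, two-sided tests and Benjamini-Hochberg adjustment within each of 5 comparisons. A gene passed at an adjusted p below 0.05. Folds are on this scale, which understates changes of low genes. With 3 arrays a side, exact permutation cannot reach a p below 0.1. On simulated arrays for the wake MI comparison the test found 93% of genes with a log2 shift of 1 and 99% with a shift of 2, 100 of each, and 12 of 204 calls (5.88%) were genes with no shift. It made 0 calls where nothing was shifted.

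The members, gene lists (metallothionein, zinc and copper handling; iron handling; glucocorticoid-responsive; receptor and hormone handling; antioxidant; interleukin-6; hypoxia-responsive; clock) and cell markers were chosen with earlier results of these data known. Genes named are Mt1 and Mt2, a panel of 19 genes whatever their result, up to 3 members of each list per direction and comparison with the smallest adjusted p, the 10 genes most and 5 least like Mt1 and Mt2, and the 5 nearest genes on either side. Other list members and per-heart values of Il17ra, Slc10a6 and Acvr1 were picked after their values were seen. Promoters come from RefSeq. Settings varied one at a time were the pseudocount (1 or 64), the level filter (none or the 60th percentile), quantile normalization or median centring, probe sets averaged per gene, a fit with no intensity trend, of the compared groups alone or with a replicate block, the beta-actin ratio as a covariate, an adjusted p below 0.01, Spearman's rho, and each array left out. Python 3.11.15 with numpy 2.4.6, pandas 2.3.3 and matplotlib 3.10.9 made the tables and figures.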

Additional observations from a re-analysis of the deposited data

How the results depend on the processing

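The log2 differences of Mt1 and Mt2 with the mean of the Mt1 probe sets were 2.04 in wake hearts, 0.86 in sleep hearts and 1.18 for the difference of the MI effect in Mt1. Leaving out 1 array at a time gave 1.07 to 1.37 for Mt1 and 3.46 to 3.99 for Mt2 in Wake-MI minus Wake-SH, 0.21 to 0.41 and 0.40 to 1.15 in Sleep-MI minus Sleep-SH, -1.07 to -0.77 and -3.38 to -2.64 in Wake-SH minus Sleep-SH, -0.10 to 0.08 and -0.18 to -0.06 in Wake-MI minus Sleep-MI, and 0.77 to 1.07 and 2.52 to 3.26 for the difference of the MI effect.

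Counts of all genes that passed moved by over 1.5 times as follows. In wake MI hearts 1496 genes became 274 with the beta-actin covariate and 564 at an adjusted p below 0.01. In sleep hearts 215 became 140 with no level filter and 51 at 0.01. Between sham groups 123 became 75 with no level filter, 74 with the mean of probe sets, 69 with the compared groups alone, 41 with the covariate and 33 at 0.01. Between MI groups 6 became 2 with no level filter, 3 with the mean of probe sets, 3 with the compared groups alone and 2 at 0.01. For the difference of the MI effect 0 became 1 at the 60th percentile, 2 with quantile normalization and 1 with median centring. Leaving out 1 array gave 845 to 1511, 62 to 289, 30 to 226, 0 to 7 and 0 to 35 genes in the 5 comparisons, the last being highest without Sleep-SH replicate 3.

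Zinc and copper genes passing were 2 in wake hearts with the covariate (6 in the report), 2 in sleep hearts with a pseudocount of 1 or the 60th percentile and 0 with no level filter, quantile normalization, the mean of probe sets or the covariate, and 0 between sham groups with no level filter, the mean of probe sets, the compared groups alone or the covariate; leaving out 1 array gave 2 to 7, 0 to 3 and 0 to 1. Glucocorticoid-responsive genes passing were 6 in wake hearts with the covariate, 0 in sleep hearts with no level filter, and 4, 2 and 2 between sham groups with no level filter, the compared groups alone and the covariate; leaving out 1 array gave 16 to 20, 0 to 2, 2 to 14 and, for the difference of the MI effect, 0 to 3. None of the 10 genes most like Mt1 and Mt2 by r was among the 10 by rho, so 0 were shared.

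The replicate numbers are shared between groups, but same-numbered arrays did not deviate together (r -0.18 to 0.25, 5 of 18 pairs above 0.1, against 9 of 36 pairs of unlike number). With the replicate block 3 genes passed between the MI groups, 3 for the difference of the MI effect, 0 of the zinc and copper genes and 7 of the glucocorticoid-responsive genes between the sham groups. Of 99 calls of named genes 32 were kept under every alternative, 15 were lost with the covariate alone and 52 in another way, and 0 changed sign. The causes of these changes were not tested. Signals under about 16, as in Wake-SH hearts for Il6, Il17ra and the dimmer Mt1 probe set, limit what their ratios can show.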
